A study of Mus musculus with 6 samples.

Results

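Glycolysis and the hypoxia response were followed here through 44 genes chosen by symbol: 24 for glycolytic enzymes, their transporters and Pdk1, 6 for the machinery of the hypoxia-inducible factors (HIF), and 14 for VEGF ligands and other HIF target genes. Of these, 42 were among the 12830 genes of the deposited count table. Ero1l was found under its current symbol Ero1a by its gene identifier, and Car12 and Ankrd37 were not analysed here. The RNA came from primary bone marrow stromal cells of mice aged 8 weeks, held for 2 days in osteogenic induction. The 3 control libraries, labelled Rras2FF and called FF here, carried Rras2 f/f. The 3 libraries labelled CKO, called cKO here, carried the floxed gene together with Prx1, so both groups shared the floxed allele and the induction. The Prx1 promoter is known for its activity in limb mesenchyme, and blood-derived cells of the marrow are not of that lineage. Whether replicates were separate animals or cultures is not said in the labels, so the p-values rest on the spread among these libraries, and that spread may be technical.

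Glycolysis splits glucose into pyruvate, which cells either oxidise in mitochondria or reduce to lactate. Under low oxygen the HIF alpha subunits, which are otherwise hydroxylated by EGLN enzymes and degraded through VHL, pair with ARNT and switch on glycolytic genes, glucose uptake, lactate export and Vegfa. In bone, osteoblasts are known for strong aerobic glycolysis, and the VEGF-A they secrete attracts the vessels that accompany bone formation.

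Library totals ran from 31934714 to 37561452 counts. Rras2, the targeted gene, had 49.7, 50.1 and 44.7 CPM (a count relative to the TMM-scaled library size) in FF and 26.65, 29.0 and 26.8 CPM in cKO, so the libraries matched their labels. The cultures held stromal and blood-derived RNA. All 10 osteoblast markers were measured and 4 fell (8 were called by DESeq2 and 8 by limma-voom), with summed levels of 22046 to 23572 CPM in FF and 15333 to 17836 CPM in cKO. All 10 macrophage markers were measured, 2 rose and 1 fell, and their sums were 21372 to 22775 CPM in FF and 23346 to 24035 CPM in cKO, most of it from the lysozyme gene Lyz2. Of the 9 marrow stroma markers 2 rose, with sums of 4071 to 4224 CPM in FF and 5260 to 5583 CPM in cKO. Yet 5 of the 9 had log2 fold changes below 0 and 4 above, with a median of -0.04. The largest was 0.47, that of Cxcl12, and the part of this 1 gene in the sums was not tested. Of 6 measured adipocyte markers 1 rose (2784 to 2915 and 3054 to 3141 CPM), and of 4 measured lymphocyte markers 3 rose (181 to 199 and 295 to 357 CPM). Of 8 osteoclast markers 1 rose, all 8 had log2 fold changes above 0, and their sums overlapped (1090 to 1500 and 1319 to 1688 CPM). Of 6 measured neutrophil markers edgeR called 0 (1 at an unadjusted p under 0.05, 1 by DESeq2), all 6 lay below 0, and their sums overlapped (420 to 552 and 371 to 488 CPM). Of 7 endothelial markers 6 were measured, with 0 calls and sums of 39.6 to 53.2 CPM in FF and 37.7 to 46.4 CPM in cKO, and no measured marker of these lists was at 0 in any library.

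Among the 42 measured genes Vegfa fell in cKO, Epas1 and Vegfc rose, and 39 did not pass the test (edgeR's quasi-likelihood F test, calling a gene at a Benjamini-Hochberg adjusted p below 0.05 over the whole table). That is 7.14% of the members, beside 4.84% of all tested genes (2.1% higher and 2.74% lower), so the share called was near the background. DESeq2 called 4 members beside 6.61% of all genes, and limma-voom called 2 beside 3.38%. With 1 library left out, edgeR called 2.89%, 2.09% and 2.95% of all genes when FF replicate 1, 2 or 3 was dropped, 9.09%, 2.53% and 2.66% when cKO replicate 1, 2 or 3 was dropped, and 2 to 4 members. None of the 24 glycolysis genes was called by edgeR, and 5 had an unadjusted p under 0.05, beside 17.3% of all genes. Of the glycolysis genes DESeq2 called Slc16a1 alone and limma-voom called 0. The 95% intervals of 38 of the 42 fold changes lay within 1.5-fold in either direction, and 26 lay within 1.2-fold. The median log2 fold change was -0.055 over the glycolysis genes, 0.082 over the 9 measured HIF targets other than VEGF ligands, -0.031 over the HIF machinery and 0.0006 over all genes. The log2 fold change was below 0 for 24 of the 42 members and for 49.8% of all genes. By class this held for 17 of the 24 glycolysis genes and 4 of the 6 HIF machinery genes. It held for 3 of the 12 measured VEGF ligands and other HIF targets. Groups did not overlap for 13 of the 42 genes, or 31.0%, beside 22.5% of all genes.

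**Figure D1:**
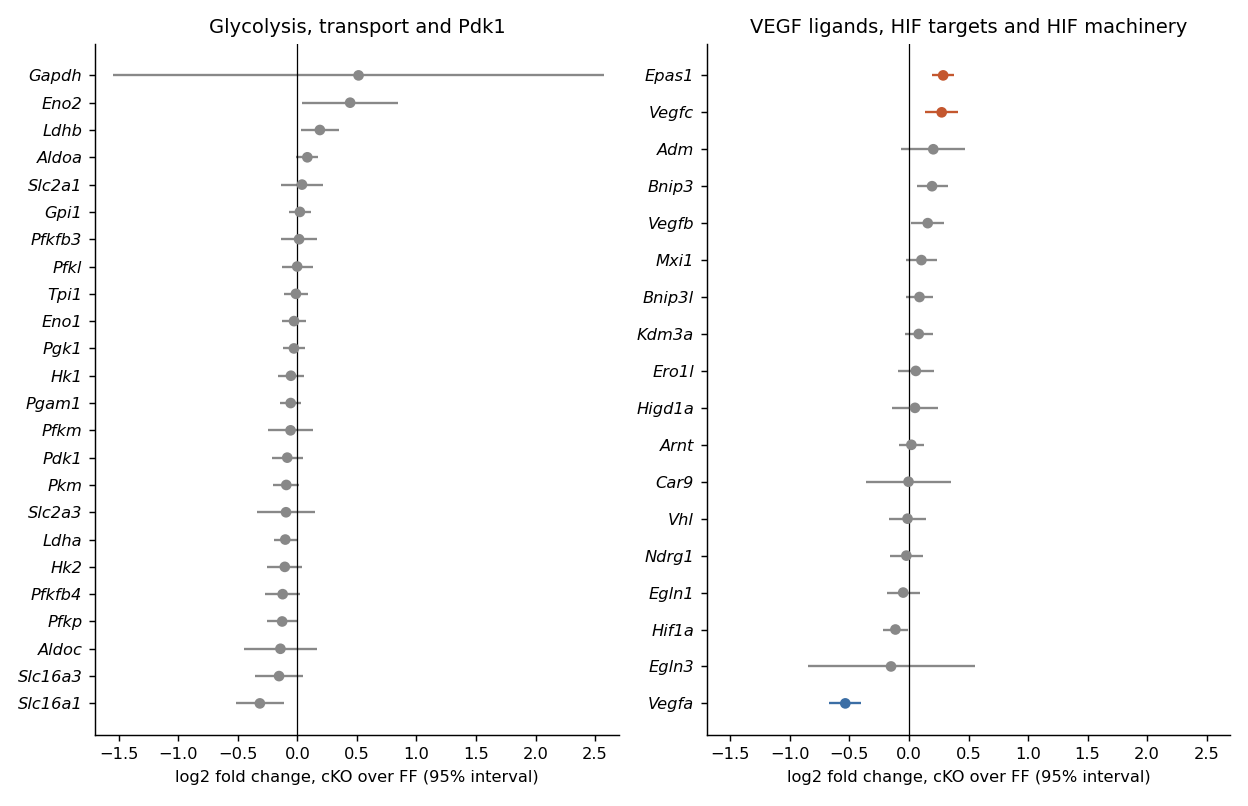
Fitted log2 fold changes of the 42 measured genes, cKO over FF, with 95% intervals (points and lines; orange rose, blue fell, grey not called; n = 3 libraries per group). Vegfa lies apart at -0.54, Epas1 and Vegfc lie at 0.29 and 0.27, and Gapdh has the widest interval, from -1.55 to 2.57.

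Vegfa encodes VEGF-A, the main growth signal for blood vessels. It had 165, 163 and 152 CPM in FF replicates 1, 2 and 3 and 121, 108 and 102 CPM in cKO replicates 1, 2 and 3. Every cKO library lay below every FF library, and the highest cKO value was that of replicate 1. The FF mean was 160 ± 7.41 CPM and the cKO mean 110 ± 9.92 CPM (SD, n = 3). This gave a log2 fold change of -0.54 (standard error 0.0615, 95% interval -0.67 to -0.40), which leaves 69.0% of the FF level (edgeR adjusted p = 0.000323). The call held in every alternative run, with adjusted p-values from 2.195e-13 to 0.00958. Vegfa (ENSMUSG00000023951) occupies positions 46016993 to 46032369 of chromosome 17, minus strand (mm10, GENCODE M21). In bulk RNA fewer cells of a type and less RNA per cell cannot be told apart. The osteoblast marker sums given above were lower in cKO, as Vegfa was, and their part in the result was not tested.

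Vegfc, which encodes the ligand best known for lymphatic vessel growth, moved the other way. Its values were 42.3, 46.0 and 47.1 CPM in FF and 52.8, 58.0 and 53.1 CPM in cKO. The lowest cKO value stood above the highest FF value, and the rise was 1.21-fold (log2 fold change 0.27, standard error 0.0639, edgeR adjusted p = 0.0232). This call was the least stable of the 3: the adjusted p became 0.110 without FF replicate 1, 0.0757 without FF replicate 2, 0.112 without cKO replicate 2 and 0.0511 in limma-voom. Vegfc (ENSMUSG00000031520) occupies positions 54077606 to 54187096 of chromosome 8, plus strand. Vegfb, a related ligand not usually counted among HIF targets, had 26.9, 27.6 and 26.2 CPM in FF and 30.3, 29.8 and 29.9 CPM in cKO. Its groups did not overlap either, but its log2 fold change of 0.16 did not pass (edgeR adjusted p = 0.208; 95% interval 0.02 to 0.29).

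**Figure D2:**
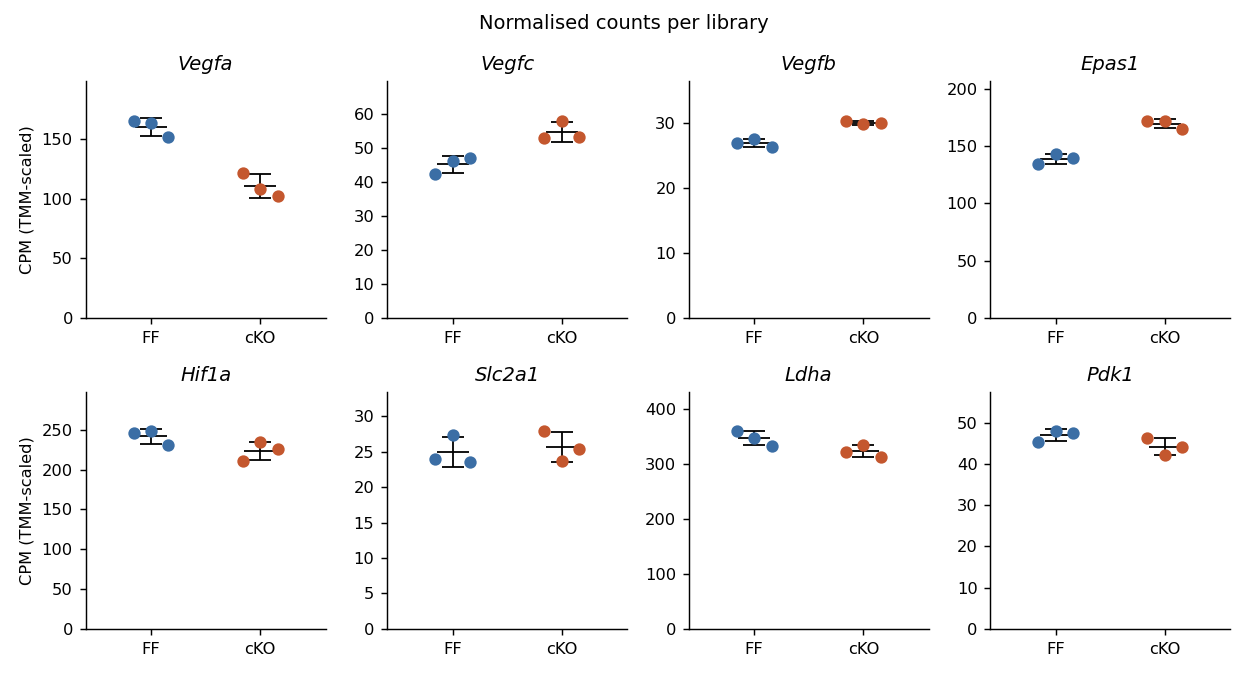
TMM-scaled CPM in each library (points), with mean and SD (bars; n = 3 per group), for the 3 VEGF ligands, the HIF alpha subunits and 3 glycolysis genes, on axes that start at 0. Vegfa separates downward, Epas1, Vegfc and Vegfb separate upward, and Hif1a, Slc2a1, Ldha and Pdk1 overlap between groups.

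The share of Vegfa in the sum of Vegfa, Vegfb and Vegfc, without other ligands of the family, was computed per library. On the deposited FPKM scale, as the authors adjusted it for length and depth, Vegfa made up 57.0%, 55.6% and 54.4% of this sum in FF. In cKO it made up 45.8%, 41.8% and 41.8%. The mean share was 12.5 percentage points lower in cKO (two-sided exact permutation test, p = 0.1, n = 3, adjusted p = 0.22 over 11 shares; 0.1 is the smallest p that 3 against 3 can give). From counts not scaled by length, the difference in mean share was -12.4 percentage points. Vegfa remained the most abundant of these 3 ligands per length in both groups, with 46.1 FPKM in FF and 32.1 FPKM in cKO. Vegfb had 19.9 and 21.9 FPKM, and Vegfc had 16.9 and 20.2 FPKM.

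The HIF core motif was looked up in the 250 bases before the outermost RefSeq start site of each gene (GRCm38.p6), which was found for 38 of the 42 members; Slc2a3, Epas1, Bnip3l and Ndrg1 had no entry. The letters searched were ACGTG and GCGTG, on both strands, with overlapping matches counted separately, so a palindromic CACGTG gives a pair of matches. ACGTG was in 39.5% of the member windows, 21.5% of the windows of genes in the table and 16.5% of all 27025 windows. GCGTG was in 19 of the 38 member windows, 45.6% of those of genes in the table and 28.3% of all windows. A match of either kind was in 28 of the 38 member windows (73.7%), 56.6% of those of genes in the table and 38.6% of all windows. The 10 without one were those of the called genes Vegfa and Vegfc and of Hk1, Gpi1, Aldoa, Tpi1, Eno2, Pkm, Vhl and Mxi1, which were not called. Among windows with matches, Ldha and Bnip3 had 5 each and Slc16a1 had 4. Pfkp, Pgam1, Hif1a and Ero1l had 3 each, and Pgk1 had 2. The windows of the called VEGF genes are shown as examples without the motif. Those of Ldha, Slc16a1 and Pgk1 are shown as examples with it, not as the windows with most matches. Capitals mark the matches. Each sequence is read 5′ to 3′ on its gene's strand and ends at the base before the start site.
Vegfa, chr17:46032378-46032627, minus strand: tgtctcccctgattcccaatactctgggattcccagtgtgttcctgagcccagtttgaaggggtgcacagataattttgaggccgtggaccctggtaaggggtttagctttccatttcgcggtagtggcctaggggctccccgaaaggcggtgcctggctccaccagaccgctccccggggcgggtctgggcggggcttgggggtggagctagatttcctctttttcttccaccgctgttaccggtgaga
Vegfc, chr8:54077282-54077531, plus strand: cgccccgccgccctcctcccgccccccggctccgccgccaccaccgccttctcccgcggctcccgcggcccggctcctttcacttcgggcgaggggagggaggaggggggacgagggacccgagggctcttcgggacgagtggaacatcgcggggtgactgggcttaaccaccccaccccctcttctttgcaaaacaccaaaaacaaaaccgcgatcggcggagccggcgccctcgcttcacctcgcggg
Ldha, chr7:46845554-46845803, plus strand: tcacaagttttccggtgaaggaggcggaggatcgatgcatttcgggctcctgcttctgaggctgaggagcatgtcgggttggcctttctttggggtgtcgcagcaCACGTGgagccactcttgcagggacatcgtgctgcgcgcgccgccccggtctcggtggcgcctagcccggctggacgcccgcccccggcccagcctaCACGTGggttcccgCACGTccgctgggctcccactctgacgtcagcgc
Slc16a1, chr3:104638414-104638663, plus strand: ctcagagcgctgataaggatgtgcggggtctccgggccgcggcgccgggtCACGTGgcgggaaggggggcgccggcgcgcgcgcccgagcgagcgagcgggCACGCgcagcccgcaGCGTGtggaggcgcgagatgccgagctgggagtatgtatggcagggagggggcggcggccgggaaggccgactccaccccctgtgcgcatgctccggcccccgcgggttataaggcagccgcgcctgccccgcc
Pgk1, chrX:106186850-106187099, plus strand: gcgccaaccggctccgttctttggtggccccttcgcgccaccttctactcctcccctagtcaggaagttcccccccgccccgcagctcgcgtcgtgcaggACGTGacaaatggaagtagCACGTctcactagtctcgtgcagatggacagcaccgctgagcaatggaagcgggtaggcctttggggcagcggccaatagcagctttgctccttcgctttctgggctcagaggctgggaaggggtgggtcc
A match describes letters in the window and does not show that a factor binds there. Bases further upstream and other start sites of a gene were not searched. A window without a match therefore does not show that the gene, Vegfa included, lacks the motif elsewhere.

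Of the HIF alpha subunit genes Epas1 was called and Hif1a was not, and this alone does not show that they changed differently. Epas1, which encodes the alpha subunit also called HIF2A, had 134, 143 and 140 CPM in FF and 172, 172 and 165 CPM in cKO. The groups lay well apart, with means of 139 ± 4.37 and 170 ± 4.01 CPM (SD, n = 3). The log2 fold change of 0.29 (standard error 0.0434) is a 1.22-fold rise (edgeR adjusted p = 0.00131), and the call held in every alternative run, with adjusted p-values up to 0.0122. Epas1 (ENSMUSG00000024140) occupies positions 86753700 to 86833410 of chromosome 17, plus strand. Hif1a, the classical oxygen-regulated alpha subunit, had 246, 248 and 231 CPM in FF and 211, 234 and 225 CPM in cKO. Its groups overlapped slightly and it did not pass (log2 fold change -0.11, 95% interval -0.22 to -0.01, edgeR adjusted p = 0.231). Endothelial cells, in which Epas1 is known to be strongly expressed, gave summed markers of 53.2, 52.0 and 39.6 CPM in FF and 46.4, 42.9 and 37.7 CPM in cKO. The marrow stroma, macrophage, adipocyte and lymphocyte sums given above were higher in cKO, as Epas1 and Vegfc were. Single markers did not all follow the sums, as 5 of the 9 marrow stroma markers lay below 0. The part of these cell types, endothelial cells included, in the result was not tested.

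Per length, Hif1a was the more abundant alpha subunit in both groups, at 47.0 FPKM in FF and 43.1 FPKM in cKO beside 23.1 and 27.9 FPKM for Epas1. The share of Epas1 in the sum of both was 31.8%, 33.0% and 34% in FF and 41.0%, 38.6% and 38.5% in cKO. That is 6.41 percentage points higher on average, without overlap (exact permutation test, p = 0.1, n = 3, adjusted p = 0.22 over 11 shares). Arnt, the shared beta subunit, had a log2 fold change of 0.02 with a 95% interval from -0.09 to 0.13. The enzymes that mark the alpha subunits for destruction did not pass either. Egln1, the main oxygen-sensing prolyl hydroxylase, had 48.4, 53.4 and 54.5 CPM in FF and 50.4, 53.2 and 47.6 CPM in cKO, which overlap throughout. Vhl, the recognition subunit of the ubiquitin ligase, had a log2 fold change of -0.01 with an interval from -0.17 to 0.15. Egln3, a HIF-induced hydroxylase, was at 0.873 to 2.20 CPM in all libraries, and its interval from -0.85 to 0.55 is too wide to place.

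**Figure D3:**
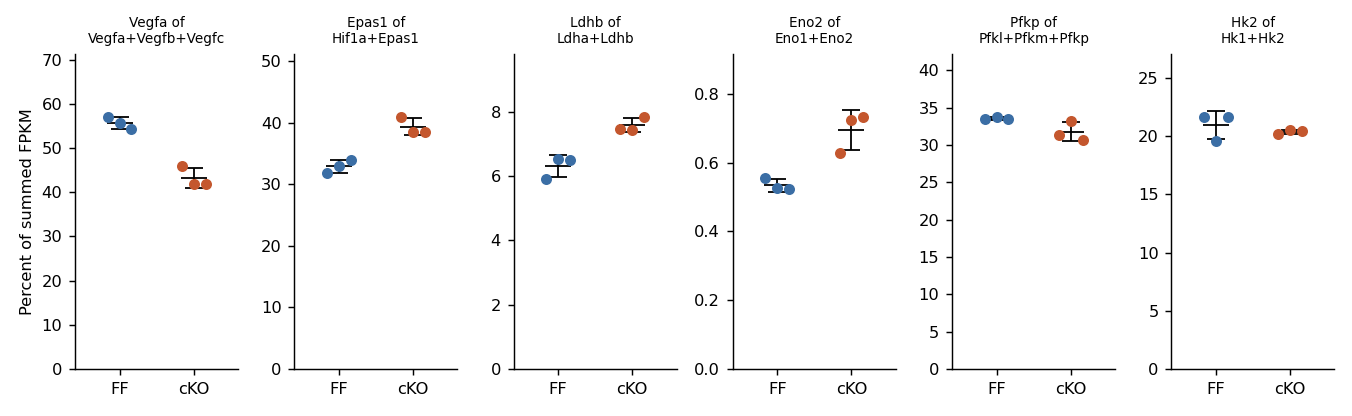
Share of 1 gene in the summed FPKM of its family, in percent, per library (points) with mean and SD (bars; n = 3 per group). The Vegfa share averages 55.7% in FF and 43.2% in cKO, the Epas1 and Ldhb shares are higher in every cKO library, and the Hk2 share overlaps between groups.

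Of the 11 other HIF targets, 9 were measured and 0 were called; 1 had an unadjusted p under 0.05, and DESeq2 and limma-voom called 0 of them. Their log2 fold changes ran from -0.02 to 0.20, 7 of them above 0. Bnip3l, a mitophagy receptor and the most abundant of its role, had 130, 135 and 141 CPM in FF and 134, 152 and 146 CPM in cKO, which overlap. Mxi1, a MYC antagonist, had 43.1, 40.7 and 44.4 CPM in FF and 47.5, 44.9 and 45.4 CPM in cKO. Its groups did not overlap, and the log2 difference of 0.10 did not pass (edgeR adjusted p = 0.416). Car9, a carbonic anhydrase of the cell surface that is a sensitive hypoxia marker, was low, at 3.48 to 4.27 CPM, with a 95% interval from -0.36 to 0.35. Outside the naming rule, and chosen after its values were seen, Bnip3, the other mitophagy receptor, came closest to the threshold. It had 36.4, 35.1 and 37.6 CPM in FF and 40.4, 42.3 and 42.0 CPM in cKO (log2 fold change 0.19, edgeR adjusted p = 0.0973), and passed without cKO replicate 1 (0.0494).

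The remaining targets did not pass the test. Kdm3a, a histone demethylase, had 48.0 to 50.1 CPM in FF and 51.7 to 52.6 CPM in cKO, separate groups with a log2 fold change of 0.08 that did not pass. Adm, the vasodilator peptide adrenomedullin, had a log2 fold change of 0.20 with an interval from -0.06 to 0.47, and its cKO libraries were spread from 8.98 to 12.6 CPM. Its log2 fold change was 0.32 without cKO replicate 1 and 0.07 without cKO replicate 3. Ero1l, an oxidase of protein folding, Higd1a, a mitochondrial inner membrane protein, and Ndrg1, a stress-induced cytosolic protein, had log2 fold changes of 0.06, 0.05 and -0.02, with intervals of -0.09 to 0.21, -0.15 to 0.25 and -0.16 to 0.12.

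None of the genes for glucose entry and its first steps passed the test. Slc2a1 encodes GLUT1, the widespread glucose transporter, and had 23.96, 27.38 and 23.59 CPM in FF and 27.90, 23.65 and 25.42 CPM in cKO. The values interleave, and the 95% interval of the log2 fold change ran from -0.14 to 0.22. Slc2a3, a high-affinity glucose transporter, had a log2 fold change of -0.10 (interval -0.34 to 0.15). Gpi1, the isomerase that follows hexokinase, had 314, 326 and 317 CPM in FF and 334, 316 and 322 CPM in cKO, an interval from -0.07 to 0.11. The hexokinases Hk1 and Hk2 had log2 fold changes of -0.05 and -0.11 (intervals -0.16 to 0.05 and -0.25 to 0.04). Per length Hk1 exceeded Hk2 in every library, with Hk2 at 20.9% and 20.4% of their sum in FF and cKO.

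Phosphofructokinase commits sugar to glycolysis. Its most abundant subunit per length, Pfkl, had 64.0, 61.6 and 55.5 CPM in FF and 60.8, 59.0 and 61.0 CPM in cKO, with the cKO values inside the FF range. Pfkp was 48.6 to 52.2 CPM in FF and 44.6 to 47.3 CPM in cKO, without overlap, but its log2 fold change of -0.13 did not pass (edgeR adjusted p = 0.269). The muscle subunit Pfkm had -0.06. Pfkfb4, which sets the level of the sugar bisphosphate that activates phosphofructokinase, had 38.95, 38.41 and 41.39 CPM in FF and 38.96, 34.05 and 35.94 CPM in cKO (log2 fold change -0.12, edgeR adjusted p = 0.378), and its relative Pfkfb3 had 0.01. Aldoa, the main aldolase, had 434, 429 and 425 CPM in FF and 474, 446 and 444 CPM in cKO. These groups were separate, yet the difference of 0.08 on the log2 scale did not pass (edgeR adjusted p = 0.349). Aldoc and Tpi1, the triose phosphate isomerase gene, had -0.14 and -0.01.

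Pkm, the pyruvate kinase gene and the most abundant member per length at 408 FPKM, had 1123, 1038 and 1031 CPM in FF and 1039, 944 and 1009 CPM in cKO. The groups overlapped by a narrow margin, and the interval of the log2 fold change ran from -0.20 to 0.02 (edgeR adjusted p = 0.386). Pgk1, Pgam1 and Eno1, the enzymes between triose phosphate and pyruvate, had log2 fold changes of -0.03, -0.06 and -0.03 with intervals inside -0.14 to 0.07. Pgam1 and Eno1 have near-identical copies in the table (an unnamed row at 47.6 to 52.0 CPM for Pgam1, and Eno1b at 22.6 to 27.6 CPM), so their reads may have been split among rows. Eno2, the enolase of neurons, was scarce at 2.38 to 3.07 CPM in FF and 3.39 to 3.83 CPM in cKO (log2 fold change 0.44, interval 0.04 to 0.84, edgeR adjusted p = 0.228).

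Gapdh stood apart from its pathway and was also singled out after its values were seen. It had 15.5, 15.7 and 2.21 CPM in FF and 14.7, 17.6 and 15.7 CPM in cKO, so FF replicate 3 alone was low, with 71 counts beside 515 to 610 in each of the other libraries. Per length it had 10.2 FPKM, where its neighbours in the pathway Tpi1 and Pgk1 had 96.5 and 116 FPKM. By library it had 10.9, 11.5 and 4.31 FPKM in FF and 10.7, 12.5 and 11.1 FPKM in cKO. FF replicate 3 was thus less low in FPKM than in counts, and the ratio of FPKM to CPM was not fixed across libraries. The table also lists the copies Gapdhrt and Gapdhrt2 and an unnamed row with the same protein match. The 4 rows together gave 26.6 to 29.8 CPM in 5 libraries and 11.4 CPM in FF replicate 3. How the authors counted reads that fit several copies is not given in the sources used here, so the Gapdh level is uncertain. Its log2 fold change of 0.51 has an interval from -1.55 to 2.57, was 0.03 without FF replicate 3 and was 0.44 to 0.85 with any of the other libraries left out.

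Lactate is made by lactate dehydrogenase and leaves the cell through monocarboxylate transporters. Ldha, the subunit that favours lactate formation, had 360, 349 and 334 CPM in FF and 322, 336 and 314 CPM in cKO. The groups overlapped at a single pair of libraries, and the log2 fold change of -0.10 did not pass (edgeR adjusted p = 0.253, interval -0.20 to -0.01). Ldhb, the subunit that favours lactate use, had 18.4, 19.9 and 18.9 CPM in FF and 21.4, 22.0 and 21.8 CPM in cKO, separate groups with a log2 fold change of 0.19 that did not pass either (edgeR adjusted p = 0.20). On the FPKM scale Ldhb made up 5.92%, 6.55% and 6.50% of their sum in FF and 7.48%, 7.44% and 7.85% in cKO, without overlap (exact permutation test, p = 0.1, n = 3, adjusted p = 0.22 over 11 shares).

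Slc16a3 encodes MCT4, the HIF-induced lactate exporter, and had 17.16, 16.63 and 15.74 CPM in FF and 16.16, 13.37 and 14.98 CPM in cKO, overlapping groups with a log2 difference of -0.15 (edgeR adjusted p = 0.438). Slc16a1, the gene of the more general transporter MCT1, was named after its values were seen. It had 19.1, 21.8 and 24.1 CPM in FF and 17.1, 18.5 and 16.6 CPM in cKO, separate groups and the lowest fold change of the glycolysis genes (-0.32, interval -0.52 to -0.12). Its edgeR adjusted p was 0.0751. It passed in DESeq2 (0.0489) and without FF replicate 1 (0.0330), but not in limma-voom (0.144). The authors' deposited adjusted p of 0.0489 matched the DESeq2 value, so it is not a separate result. Pdk1, a pyruvate dehydrogenase kinase, had 45.3, 47.9 and 47.6 CPM in FF and 46.4, 42.3 and 44.1 CPM in cKO, with an interval from -0.22 to 0.04.

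**Figure D4:**
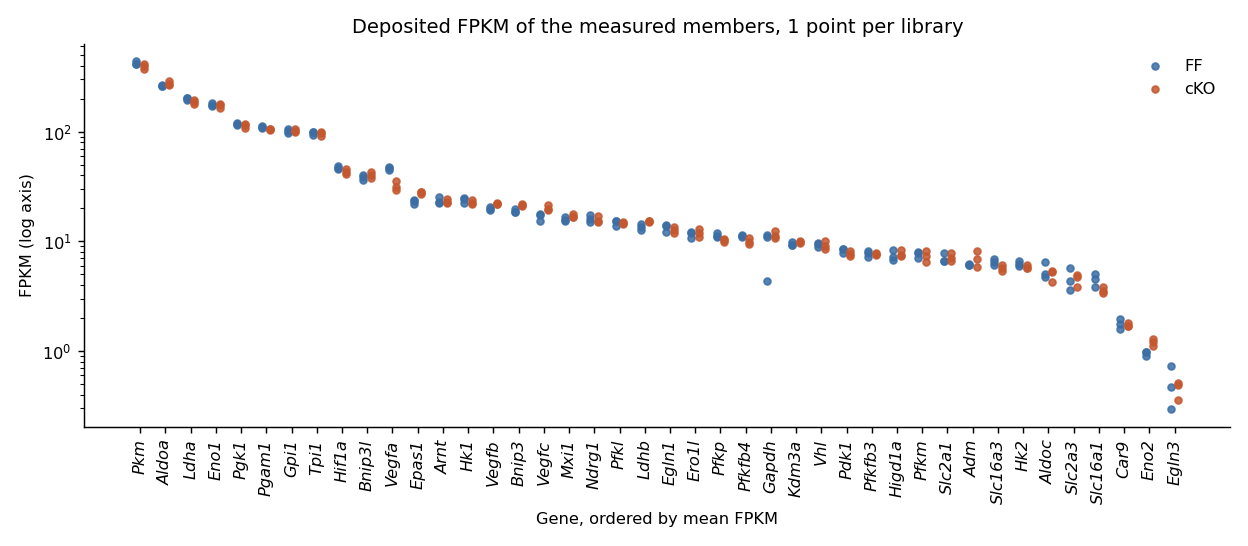
Deposited FPKM of each measured gene in each library (points, log axis), ordered by the mean over 6 libraries. Pkm is highest at 408 FPKM and Egln3 lowest at 0.477 FPKM; Gapdh sits low for a glycolytic enzyme, with FF replicate 3 below the rest.

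The summed level of the 24 glycolysis genes was 3620 to 3808 CPM in FF and 3555 to 3702 CPM in cKO, ranges that overlap. For the 9 HIF targets other than VEGF ligands the sums were 389 to 414 CPM in FF and 409 to 434 CPM in cKO. Of the 11 shares within families, those of Vegfa, Epas1, Ldhb, Eno2 and Pfkp did not overlap between groups, and those of Hk2, Pfkl, Pfkm, Aldoc, Slc2a3 and Slc16a3 did.

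The wider pathways were read from lists of 142 other measured genes, of which 8 rose and 4 fell (8.45%, beside 4.84% of all genes, 2.1% higher and 2.74% lower). The lists were chosen with earlier results of these data known, so their shares are not independent of these data. In the list of 46 measured hypoxia targets 5 rose and 3 fell (17.4%). DESeq2 called 10 of the 46 and limma-voom called 4. Of their log2 fold changes 21 lay below 0 and 25 above, with a median of 0.01. Cxcl12, the chemokine that holds blood stem cells in the marrow and a known HIF target, rose by 0.47 on the log2 scale (edgeR adjusted p = 9.98e-05), and it is also 1 of the marrow stroma markers. Selenbp1, a selenium-binding protein gene, rose by 0.39 (0.00477). Rcor2, a transcriptional corepressor, fell by 0.92 (0.0109, and 0.0637 without FF replicate 2). Bhlhe41, a hypoxia-induced repressor, rose by 0.26 (0.0241). The adjusted p of Bhlhe41 was 0.0860 if FF replicate 1 was dropped, 0.119 for FF replicate 2 and 0.0840 for cKO replicate 3. The other called genes of the list, named after their values were seen, were Mt1 and Hmox1, which rose by 0.41 and 0.18, and P4ha1 and P4ha2, the collagen prolyl hydroxylases, which fell by 0.17 and 0.26. Dropping FF replicate 1, FF replicate 2, cKO replicate 2 or cKO replicate 3 ended the call of each of these 4, with adjusted p-values from 0.0644 to 0.241, and limma-voom called none of them. P4ha1 and Mt1 did so without FF replicate 3 too (0.0852 and 0.0738), and P4ha1 with the replicate block (0.0616).

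Among 9 measured VEGF receptors, co-receptors and angiopoietin genes 1 was called. Angpt1, the TIE2 ligand made by perivascular stroma, had 43.3, 46.3 and 51.4 CPM in FF and 58.9, 68.6 and 64.2 CPM in cKO. The groups were separate, 0.44 apart on the log2 scale (edgeR adjusted p = 0.00289), a call that held in every alternative run. The receptor genes Flt1 and Kdr were scarce, at 2.14 and 6.09 CPM on average in FF, and did not pass. Across the 9 genes 7 log2 fold changes lay below 0 and 2 above. The lowest was -0.77 and did not pass. An unadjusted edgeR p under 0.05 was found for 2 of the 9, Angpt1 included. None of 18 other HIF regulators was called by edgeR, DESeq2 or limma-voom, with 1 at an unadjusted p under 0.05 in edgeR; Rack1 and Os9, the most abundant, had log2 fold changes of 0.01 and -0.05.

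Carbon branches around glycolysis gave 3 calls among 71 measured genes (4.23%), a share near the 4.84% of all genes. Gbe1, the glycogen branching enzyme gene, rose by 0.35 among 23 other glycolysis and glycogen genes (edgeR adjusted p = 0.0286). With FF replicate 1 or 2 dropped its adjusted p was 0.0637 or 0.153, and with cKO replicate 2 or 3 dropped it was 0.0815 or 0.0949. Of the 23 genes in this list 14 had log2 fold changes below 0 and 9 above, with a median of -0.11. An unadjusted edgeR p under 0.05 was found for 8 of them, beside 17.3% of all genes. Pdp1, the phosphatase that reactivates pyruvate dehydrogenase, rose by 0.30 among 32 pyruvate dehydrogenase and citrate cycle genes (0.0278). Its adjusted p was 0.140, 0.0806 and 0.0629 without FF replicates 1, 2 and 3, with 0.140 and 0.0776 for cKO replicates 2 and 3, and 0.0630 in limma-voom. Shmt2, of mitochondrial serine use, fell by 0.21 among 16 pentose phosphate and serine genes (0.0464). Its call ended without FF replicate 1, 2 or 3 (0.110, 0.199 and 0.0975) and without cKO replicate 2 or 3 (0.0878 and 0.131), and also with the replicate block (0.0606), library totals alone (0.0545) and limma-voom (0.0507).

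**Figure D5:**
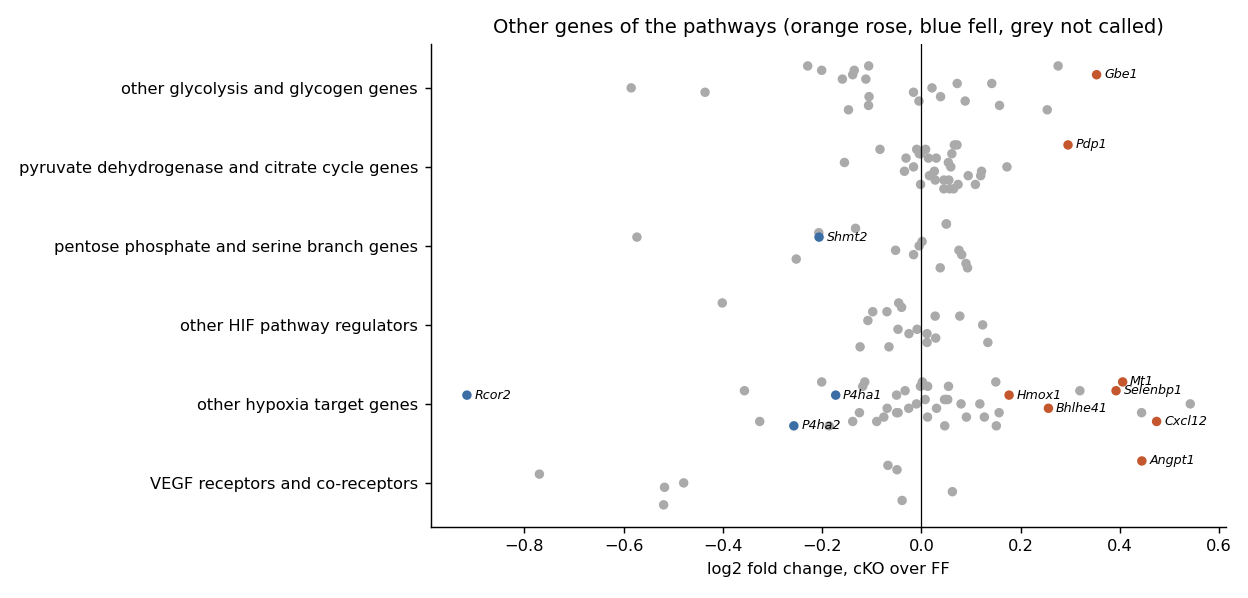
Fitted log2 fold changes, cKO over FF, of the other measured pathway genes (points, 1 per gene; orange rose, blue fell, grey not called), by list. Of 142 genes 12 were called, and 8 of these 12 belong to the list of hypoxia targets. The lists were chosen with earlier results of these data known.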

How the data were processed

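Stranded mRNA libraries were made from total RNA, per the labels' protocols. Per the submitters' processing notes, reads were placed on mm10. No aligner, counter, strand setting or treatment of reads that fit several copies is named in the sources used here. The deposited file gave raw counts per gene, and FPKM values as the authors scaled them by length and depth. The ratio of FPKM to CPM of a gene differed between libraries. How the length was set is not given in the sources used here, so levels per length and family shares rest on the authors' scaling. The authors' log2 fold changes, p-values and adjusted p-values, per the file headers, were read only where named. Each of the 6 FPKM columns correlated best with the count column of its own library. Genes absent from the table were not analysed here.

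The count test was that of edgeR 4.0.16, run in R 4.3.3 (TMM scaling, filterByExpr, which removed 0 genes, robust quasi-likelihood F test, no covariates). DESeq2 1.42.0 and limma-voom (limma 3.58.1) were alternatives, as were other scalings, filters and thresholds, the replicate number as a block, and each library left out. Intervals are 95% intervals of the fitted log2 fold change, and CPM are TMM-scaled. Tested on simulated data for this comparison with 12830 genes, edgeR recovered 40% of the genes set to a 1.3-fold change, 68% for 1.5-fold, 88% for 2-fold, 96% for 4-fold, and 8.8% of its calls were false. All pairs of libraries differed by more than sampling noise. Family shares used FPKM and a two-sided exact permutation test.

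Members, lists and tests were chosen with earlier results of these data known. Values per library are given for called members, for Vegfa, Hif1a, Slc2a1, Ldha and Pdk1, and for the most abundant member per length of each role without a call; from each pathway list up to 4 called genes by smallest p are named, else the 2 of largest mean. Promoter sequences are RefSeq's (GRCm38.p6), and coordinates are from GENCODE M21.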

Additional observations from a re-analysis of the deposited data

How the results depend on the processing

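Vegfa and Epas1 kept their direction and their call under all 14 alternative fits, and Vegfc kept its direction under all 14 but not its call. Counts of calls moved as follows. All genes: 621 called, 251 at an adjusted p below 0.01, and 268 to 1166 with 1 library left out, the highest without cKO replicate 1. Members higher: 2, with 1 in limma-voom, 1 at an adjusted p below 0.01, and 1 to 3 with 1 library left out (1 without FF replicate 1, FF replicate 2 or cKO replicate 2, and 3 without cKO replicate 1). Members lower: 1, with 2 in DESeq2, 2 at an adjusted p below 0.10, and 1 to 2 with 1 library left out (2 without FF replicate 1). Pathway genes higher: 8, with 5 in limma-voom, 3 at an adjusted p below 0.01 and 3 to 15 with 1 library left out. Pathway genes lower: 4, with 2 under the replicate block, 1 in limma-voom, 7 at 0.10, 0 at 0.01 and 0 to 9 with 1 library left out. Without Gapdh, chosen after seeing the data, the counts of members stayed at 2 and 1. The cause of these moves was not tested.

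No pairing by replicate number was seen in the deviations of libraries from their group means. Same-numbered libraries correlated at -0.036, 0.091 and -0.099, and FF replicate 1 correlated best with cKO replicate 3 (0.207). With 3 libraries per group these correlations constrain each other, so they cannot settle whether the libraries were paired. The replicate block called 669 genes. It changed no call among the members, and among the pathway genes named it ended those of Shmt2 (0.0606) and P4ha1 (0.0616).

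Sign changes of fold changes concerned 16 members that were not called. Pfkl had 0.0004 with the replicate block and Car9 had 0.0068 in limma-voom. With 1 library left out the log2 fold changes ran from -0.0025 to 0.039 for Gpi1, -0.059 to 0.040 for Pfkl, -0.14 to 0.027 for Pfkm, -0.043 to 0.083 for Pfkfb3, -0.23 to 0.025 for Aldoc, -0.045 to 0.017 for Tpi1, -0.049 to 0.0055 for Pgk1, -0.055 to 0.0022 for Eno1, -0.026 to 0.11 for Slc2a1, -0.20 to 0.025 for Slc2a3, -0.014 to 0.060 for Arnt, -0.073 to 0.047 for Vhl, -0.41 to 0.24 for Egln3, -0.079 to 0.065 for Car9, -0.076 to 0.022 for Ndrg1 and -0.0041 to 0.12 for Ero1l. Among family shares, that of Pfkm differed by -0.92 to 1.03 percentage points and that of Slc2a3 by -2.45 to 0.96 with 1 library left out. Depth limits Egln3, Eno2 and Car9, the least abundant members.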
